A study of Mus musculus with 6 samples.

Results

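C-type lectins, Siglecs and Klr receptors are surface proteins with which leukocytes and other cells read sugars, sialic acids and self proteins. The genes described here are all those whose official symbol starts with Clec and a digit, Siglec, Klr and a letter, or Cd209 and that had a probe set annotated to that symbol alone. They numbered 43 of the 16537 genes measured in this way, and the probe set with the highest mean stood for a gene with several. The choice went by symbol and annotation, but it was made with earlier results of these data known. The RefSeq gene table lists 80 symbols of this kind, and those without such a probe set, among them Clec10a and Klrb1c, were not analysed here.

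The study measured whole mouse lung after naphthalene, a chemical that injures club cells of the airway, on 6 single-channel arrays. Of these, 3 were labelled wild type and 3 were labelled as null for the long non-coding RNA gene Falcor (Falcor-/-), all of a mixed CD1 and C57Bl6 strain. The labels put the wild-type samples at 28, 29 and 30 days and the null samples at 31, 32 and 33 days after naphthalene, so that day and genotype cannot be told apart. These day labels rise by 1 from each sample to the next in the order listed, and whether they are true days or a numbering error cannot be told from the labels. The labels used here give neither age, sex and naphthalene dose nor whether the null allele is present in every cell of the animal, and they do not say that the samples are separate animals. The p-values therefore measure the spread between these samples only, which may be technical. The probe set of Falcor itself (9030622O22Rik in the annotation) read 4.69, 5.01 and 5.45 in log2 signal on wild type and 6.82, 6.34 and 6.32 on the arrays labelled null, 2.72-fold higher (adjusted p 0.0423 in limma). With 1 array left out this adjusted p was 0.0379 without wild type replicate 3 and from 0.0704 to 0.143 otherwise. That goes against the label if the probes lie in the deleted part, whose position is not given here. The neighbouring gene Foxa2 differed by 0.27 (adjusted p 0.175). All directions below take the null label as given and set it against wild type. The 8 measured markers of lung epithelium averaged between 11.02 and 11.19 in log2 signal on each array, as lung tissue would give.

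The families divide by what they do. Dectin-type receptors of macrophages, neutrophils and dendritic cells bind fungal, bacterial and damaged-cell sugars or lipids and signal through Syk and Card9, either directly or through the adaptors Fcer1g and Tyrobp. Siglecs bind sialic acid on neighbouring cells, and most of them restrain the cell that carries them through the phosphatases Ptpn6 and Ptpn11. Klr receptors set the threshold of NK cells and of some T cells by reading MHC class I, stress proteins and the Clec2 family, and a few of them sit on myeloid cells instead. In lung, the alveolar macrophage carries several of the lectins and Siglecs described here.

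The 4 largest differences among the 43 genes were towards lower signal and lay in C-type lectins of myeloid cells. Clec5a was 2.97-fold lower, Clec4e (Mincle) 2.33-fold, Clec7a (Dectin-1) 2.02-fold and Clec4d (MCL) 1.96-fold, and on each of them all 3 null-labelled arrays lay below all 3 wild-type arrays. None of the 43 genes passed an adjusted p of 0.05 in limma, where 92 of all genes tested (0.556%) did, so these are differences in level that missed the test over all genes. At an unadjusted p of 0.05 in limma, 11 of the 43 were lower (25.6%), against 7.65% of all genes tested, and 1 was higher (2.33%), against 6.11%. The groups did not overlap, with the null-labelled arrays lower, in 9 of the 43 (20.9%), against 10.6% of all genes, and with the null-labelled arrays higher in 1 (2.33%), against 8.96%. A difference below -0.5 on the log2 scale was found in 11 of the 43 (25.6%) and in 2.95% of all genes. In all, 30 of the 43 were lower (69.8%), against 49.2% of all genes, and their median log2 difference was -0.16, where the median over all genes was 0.00. Whole lung was measured, so fewer cells of a type and less RNA per cell cannot be told apart in any of these values.

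**Figure D1:**
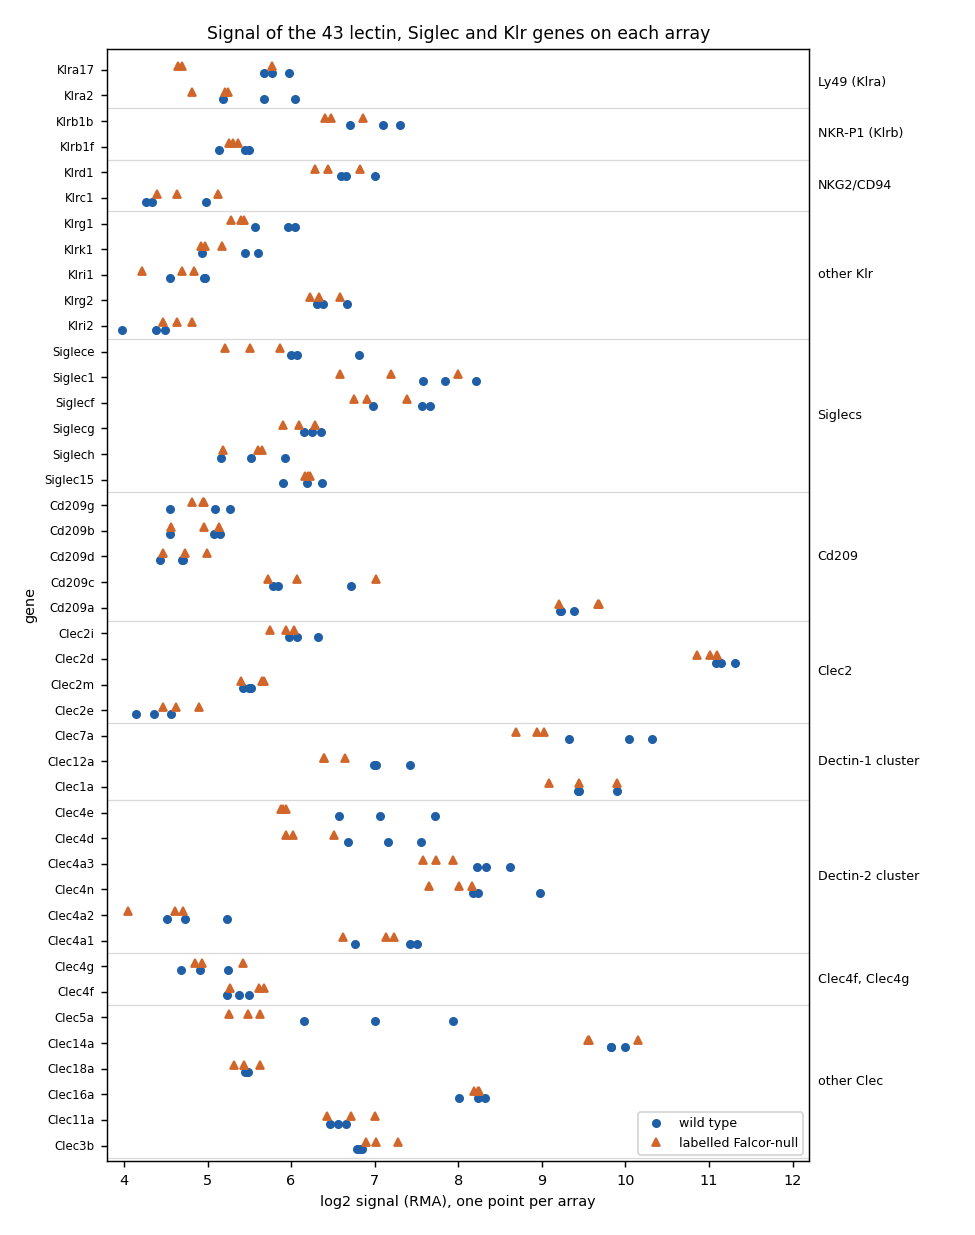
Log2 signal of each of the 43 genes (rows, grouped by family) on each array, with circles for the 3 wild-type arrays and triangles for the 3 arrays labelled Falcor-null. Positions are to be compared within a row, since signal also depends on the probes. The triangles lie to the left of all circles in 9 rows, among them Clec5a, Clec4e, Clec7a and Clec4d, and to the right of all circles only in Clec3b.

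The start regions of the 4 genes with the largest differences are shown because these genes, on 1 chromosome but in 3 separate places, were lower together. Each is the RefSeq window of assembly GRCm38.p6 from 250 bases before to 50 bases after the annotated start, in the direction of the gene. They lie at chr6:40585756-40586055 (minus strand), chr6:123289822-123290121 (minus strand), chr6:129472730-129473029 (minus strand, the first of 2 listed starts) and chr6:123261857-123262156 (plus strand). Capitals mark matches to GAGGAA, the core read by the myeloid factor PU.1, on either strand (TTCCTC on the other), and to the C/EBP-like motif TTGCNNAA on either strand. No match to the AP-1-like motif TGANTCA lies in the 4 windows.
Clec5a: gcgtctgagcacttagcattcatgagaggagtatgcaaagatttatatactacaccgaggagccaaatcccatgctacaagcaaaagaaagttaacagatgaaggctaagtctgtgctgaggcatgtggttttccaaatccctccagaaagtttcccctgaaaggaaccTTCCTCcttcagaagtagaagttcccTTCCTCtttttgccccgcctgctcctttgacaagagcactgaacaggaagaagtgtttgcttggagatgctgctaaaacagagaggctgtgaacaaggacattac
Clec4e: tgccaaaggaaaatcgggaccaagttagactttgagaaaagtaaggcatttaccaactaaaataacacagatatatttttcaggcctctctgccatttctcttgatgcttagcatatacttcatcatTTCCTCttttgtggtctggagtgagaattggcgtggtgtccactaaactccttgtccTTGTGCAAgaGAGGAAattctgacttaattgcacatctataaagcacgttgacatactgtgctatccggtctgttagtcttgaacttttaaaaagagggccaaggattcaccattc
Clec7a: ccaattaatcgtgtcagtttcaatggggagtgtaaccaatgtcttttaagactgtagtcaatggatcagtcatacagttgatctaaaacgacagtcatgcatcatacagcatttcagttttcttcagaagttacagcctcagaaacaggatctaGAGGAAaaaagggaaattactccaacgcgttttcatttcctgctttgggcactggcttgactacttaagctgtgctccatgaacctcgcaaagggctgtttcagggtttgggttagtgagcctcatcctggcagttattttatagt
Clec4d: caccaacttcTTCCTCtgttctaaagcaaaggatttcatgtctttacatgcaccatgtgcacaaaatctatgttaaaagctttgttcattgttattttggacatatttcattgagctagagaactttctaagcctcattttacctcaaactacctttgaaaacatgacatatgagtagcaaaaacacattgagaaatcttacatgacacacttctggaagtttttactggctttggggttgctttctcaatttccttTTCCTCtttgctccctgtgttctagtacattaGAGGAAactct

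All 4 windows held GAGGAA or its complement, with 2 matches in Clec5a, 2 in Clec4e, 1 in Clec7a and 3 in Clec4d. Among the 35 of the 43 genes with a listed window, 20 held this motif (57.1%), as did 28.3% of all 27025 genes with a window. Members with small differences also held it, among them Clec18a (-0.01), Clec16a (0.04) and Siglech (-0.06). Whether the motif goes with the size of the difference was not tested. The C/EBP-like motif was in 11 of the 35 (31.4%), against 10.8% of all, with 1 match in Clec4e, set apart from a GAGGAA by 2 bases, and the AP-1-like motif was in 7 of the 35 (20.0%), against 7.93% of all. The windows differ in base composition, which was not matched here, and a match of these letters is a description and not a bound site.

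Clec5a, a receptor of neutrophils and macrophages that signals through the adaptor Tyrobp, had log2 signals of 6.15, 7.93 and 7.0 in wild type, against 5.26, 5.48 and 5.63 where the label was null. The groups did not overlap, wild type replicate 2 being the highest and wild type replicate 1 the nearest to the null-labelled arrays. The log2 difference was -1.57 (SE 0.39, 95% interval -2.49 to -0.65), with an adjusted p of 0.145 in limma. The wild-type arrays spread more (SD 0.89) than the null-labelled ones (SD 0.19).

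The Dectin-2 cluster holds neighbouring receptor genes of macrophages, neutrophils and dendritic cells, and all 6 of its measured genes were lower, with a median log2 difference of -0.58. Clec4e, which senses mycobacterial glycolipid and dying cells, read 6.58, 7.73 and 7.07 on wild type and 5.94, 5.90 and 5.88 on the null-labelled arrays. The latter 3 had an SD of 0.03 and lay below every wild-type array. Its log2 difference was -1.22 (SE 0.25, 95% interval -1.81 to -0.62, adjusted p 0.0997). Clec4d, which pairs with Clec4e at the cell surface, read 6.68, 7.56 and 7.16 on wild type and 5.94, 6.03 and 6.51 on the null-labelled arrays, a difference of -0.97 (SE 0.24, adjusted p 0.134). As in Clec4e and Clec5a, wild type replicate 2 was the highest array.

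Clec4n, which is Dectin-2 itself and binds fungal mannans, read 8.18, 8.98 and 8.24 on wild type and 7.65, 8.01 and 8.16 on the null-labelled arrays. The groups did not overlap, but the highest null-labelled array lay only just below the lowest wild-type array. The difference was -0.53 (SE 0.23, adjusted p 0.370). Clec4a3, a gene of the DCIR group, read 8.23, 8.33 and 8.61 on wild type and 7.74, 7.94 and 7.58 on the null-labelled arrays. It differed by -0.64 with a small spread (SE 0.13, adjusted p 0.0986). Clec4a1 and Clec4a2, the latter the inhibitory receptor DCIR, overlapped between the groups, with differences of -0.23 (95% interval -0.77 to 0.31) and -0.37 (95% interval -0.91 to 0.16) and adjusted p-values of 0.724 and 0.529. Clec4a2 read 4.05 to 5.24 over all arrays, near the low end of the scale.

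Within the Dectin-1 cluster the 2 leukocyte receptors were lower and the endothelial one overlapped. Clec7a, the receptor for fungal beta-glucan, read 9.32, 10.32 and 10.05 on wild type and 8.69, 8.94 and 9.03 on the null-labelled arrays. All null-labelled arrays lay below the lowest wild-type array, wild type replicate 1, and the difference was -1.01 (SE 0.24, 95% interval -1.58 to -0.45, adjusted p 0.130). Clec12a, an inhibitory receptor of myeloid cells for uric acid crystals, read 7.01, 6.99 and 7.42 on wild type and 6.64, 6.40 and 6.40 on the null-labelled arrays. Its difference of -0.66 (SE 0.14) had an adjusted p of 0.0980, the smallest of the 43 genes. Clec1a, which endothelial cells carry and which binds fungal melanin, read 9.90, 9.45 and 9.44 on wild type and 9.90, 9.44 and 9.09 on the null-labelled arrays, with overlapping groups and a difference of -0.12 (95% interval -0.62 to 0.38, adjusted p 0.863).

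Single arrays moved these calls. Without wild type replicate 1, Clec7a (-1.30, adjusted p 0.0373), Clec4e (-1.49, adjusted p 0.0423) and Clec5a (-2.01, adjusted p 0.0479) passed in limma, and without null-labelled replicate 3 Klra17 passed (-1.14, adjusted p 0.0278). No gene of the 43 passed with any other single array left out.

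**Figure D2:**
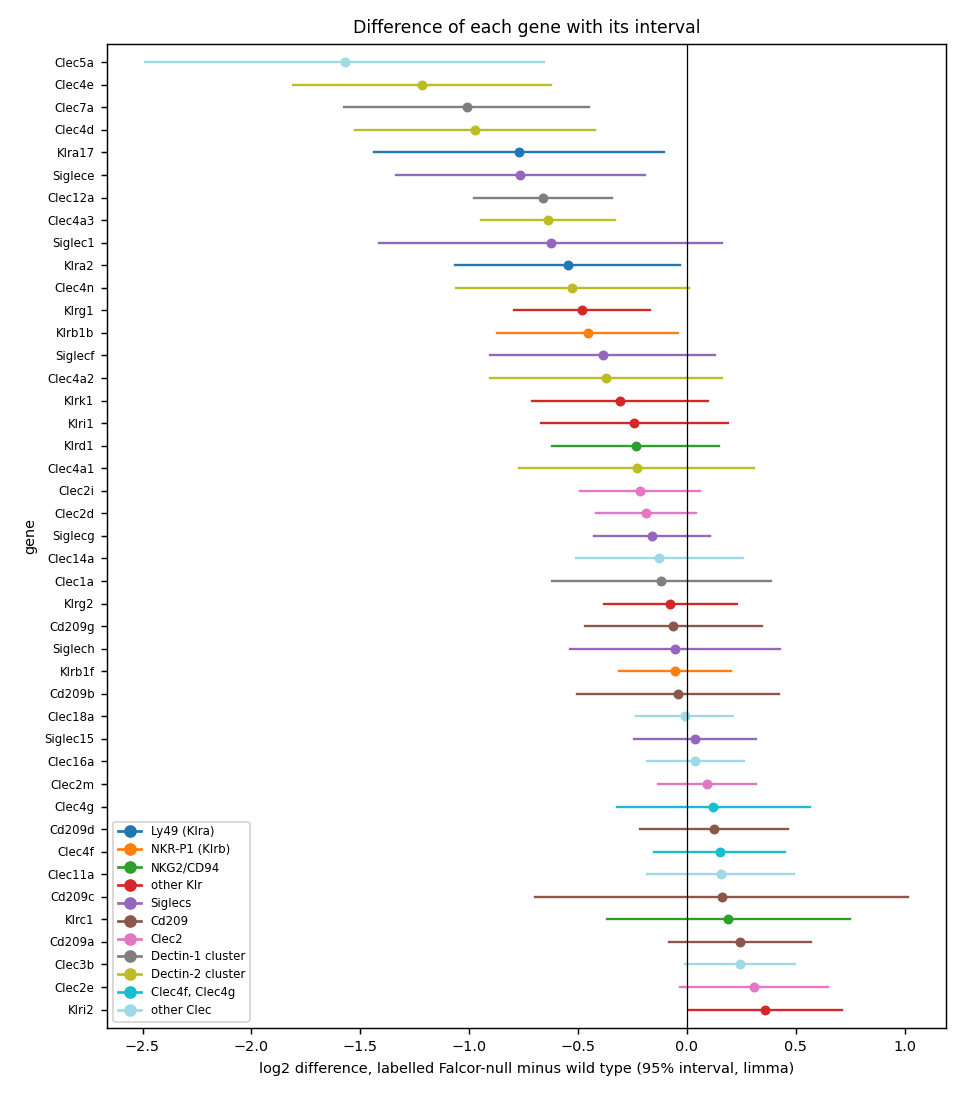
Log2 difference (labelled Falcor-null minus wild type) of each of the 43 genes, ordered by size, with 95% intervals from limma and a colour per family. Clec5a at -1.57, Clec4e at -1.22 and Clec7a at -1.01 lead the lower side, and Klri2 at 0.36 is the largest difference on the higher side.

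Siglecs were lower in 5 of 6, with a median log2 difference of -0.27 and none past the test. Siglece, an inhibitory Siglec of neutrophils and macrophages, read 6.07, 6.0 and 6.81 on wild type and 5.51, 5.21 and 5.86 on the null-labelled arrays. It was the only Siglec whose groups did not overlap, with a difference of -0.76 (SE 0.24, adjusted p 0.233), and unlike Clec5a and Clec4e it was highest on wild type replicate 3. Siglec1 (sialoadhesin, of tissue macrophages) read 7.58, 8.22 and 7.85 on wild type and 6.58, 7.19 and 8.0 on the null-labelled arrays. Replicate 3 of the null-labelled arrays reached the wild-type range, and the difference of -0.63 (SE 0.34, 95% interval -1.41 to 0.16) had an adjusted p of 0.465.

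Siglecf, which marks alveolar macrophages and eosinophils in mice, read 6.98, 7.57 and 7.66 on wild type and 6.91, 6.76 and 7.39 on the null-labelled arrays. The groups overlapped, with a difference of -0.39 (SE 0.22, 95% interval -0.90 to 0.13, adjusted p 0.496). Siglecg, of B cells, differed by -0.16 (adjusted p 0.589), Siglech, of plasmacytoid dendritic cells, by -0.06 (adjusted p 0.940) and Siglec15, known from osteoclasts, by 0.04 (adjusted p 0.927). The intervals of these 3 reached from -0.54 to 0.43 at most, so that a difference of the size seen in Siglece lies outside them.

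Of the 11 Klr genes, 9 were lower and 2 higher, with a median log2 difference of -0.24. Both Ly49 genes measured, Klra17 (Ly49Q) and Klra2 (Ly49B), belong to the few of that family known from myeloid and plasmacytoid cells rather than NK cells. Klra17 read 5.68, 5.77 and 5.98 on wild type and 4.69, 4.65 and 5.77 on the null-labelled arrays. Replicates 1 and 2 of the null-labelled arrays were low by about the same amount, both near the low end of the scale. Replicate 3 was level with wild type, and the difference was -0.77 (SE 0.29, adjusted p 0.291). Klra2 read 5.18, 5.67 and 6.05 on wild type and 4.81, 5.20 and 5.24 on the null-labelled arrays, which overlapped at its low wild-type replicate 1 (-0.55, SE 0.22, adjusted p 0.334). Ly49 genes resemble one another closely and differ between mouse strains, so signal cannot be given to 1 of them with certainty in a mixed strain.

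Klrg1, a cadherin-binding inhibitory receptor of effector T cells, NK cells and type 2 innate lymphoid cells, was the only Klr gene whose groups did not overlap. It read 6.05, 5.56 and 5.96 on wild type and 5.40, 5.44 and 5.28 on the null-labelled arrays, a difference of -0.48 (SE 0.13, adjusted p 0.180). Klrb1b, an inhibitory receptor of the NKR-P1 family that recognises Clec2d, read 7.30, 6.7 and 7.10 on wild type and 6.48, 6.86 and 6.41 on the null-labelled arrays (-0.46, SE 0.18, adjusted p 0.321). Its ligand gene Clec2d read 11.32, 11.08 and 11.14 on wild type and 11.02, 11.10 and 10.86 on the null-labelled arrays, a difference of -0.19 (95% interval -0.42 to 0.04, adjusted p 0.457). Receptor and ligand thus both overlapped between the groups.

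Klrd1, Klrk1 and Klrc1, known from NK cells, had intervals that include 0. Klrd1 (CD94), which pairs with NKG2 chains to read the MHC class I molecule Qa-1, read 7.01, 6.60 and 6.66 on wild type and 6.45, 6.82 and 6.29 on the null-labelled arrays, a difference of -0.23 (95% interval -0.62 to 0.15, adjusted p 0.579). Klrk1 (NKG2D), the activating receptor for stress-induced ligands, differed by -0.31 (95% interval -0.71 to 0.09, adjusted p 0.486). Klrc1 (NKG2A), which pairs with Klrd1, read 4.27 to 4.98 on wild type and 4.40 to 5.12 on the null-labelled arrays, near the low end of the scale. It differed by 0.19 (95% interval -0.37 to 0.75, adjusted p 0.786). Klri2 was the only member higher at an unadjusted p of 0.05 (0.36, adjusted p 0.352), and its relative Klri1 differed by -0.24 (adjusted p 0.617). Both read under 5 on every array, near the low end of the scale. Klrb1f (-0.06), which recognises Clec2i, and Klrg2 (-0.08) had adjusted p-values of 0.875 and 0.855.

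In the Clec2 family, whose products are ligands of NKR-P1 receptors, 2 genes were lower and 2 higher, none past the test. Clec2i (-0.22), Clec2e (0.31) and Clec2m (0.09) had adjusted p-values between 0.406 and 0.731 beside Clec2d. Clec2e read 4.15 to 4.90 over all arrays, near the low end of the scale. The Cd209 genes, relatives of human DC-SIGN that bind mannose and fucose, were 2 lower and 3 higher. Cd209a read 9.21, 9.23 and 9.39 on wild type and 9.67, 9.21 and 9.68 on the null-labelled arrays. Its groups overlapped through null-labelled replicate 2, with a difference of 0.24 (95% interval -0.08 to 0.57, adjusted p 0.496), the opposite sign to the Dectin-2 cluster. Cd209b (-0.04), Cd209c (0.16), Cd209d (0.12) and Cd209g (-0.06) had adjusted p-values between 0.771 and 0.958.

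Among the lectins of other cells the direction was mixed and none passed the test. Clec14a, a receptor of endothelial cells, read 9.99, 9.83 and 9.83 on wild type and 10.15, 9.56 and 9.56 on the null-labelled arrays (-0.13, adjusted p 0.791). Clec3b (tetranectin), a secreted plasminogen-binding protein, was the only gene of the 43 with every null-labelled array above wild type, at 6.84, 6.83 and 6.78 against 7.02, 7.28 and 6.89. Its difference was 0.24 (SE 0.11, 95% interval -0.01 to 0.50, adjusted p 0.377). Clec11a, a secreted growth factor of blood and bone progenitors, differed by 0.16 (adjusted p 0.696), Clec16a, an endosomal protein of autophagy despite its name, by 0.04 (adjusted p 0.905) and Clec18a by -0.01 (adjusted p 0.979). Clec4f, known from Kupffer cells of the liver, and Clec4g, known from liver sinusoids, differed by 0.15 and 0.12 (adjusted p-values 0.667 and 0.836) and read 4.69 to 5.68 over all arrays.

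**Figure D3:**
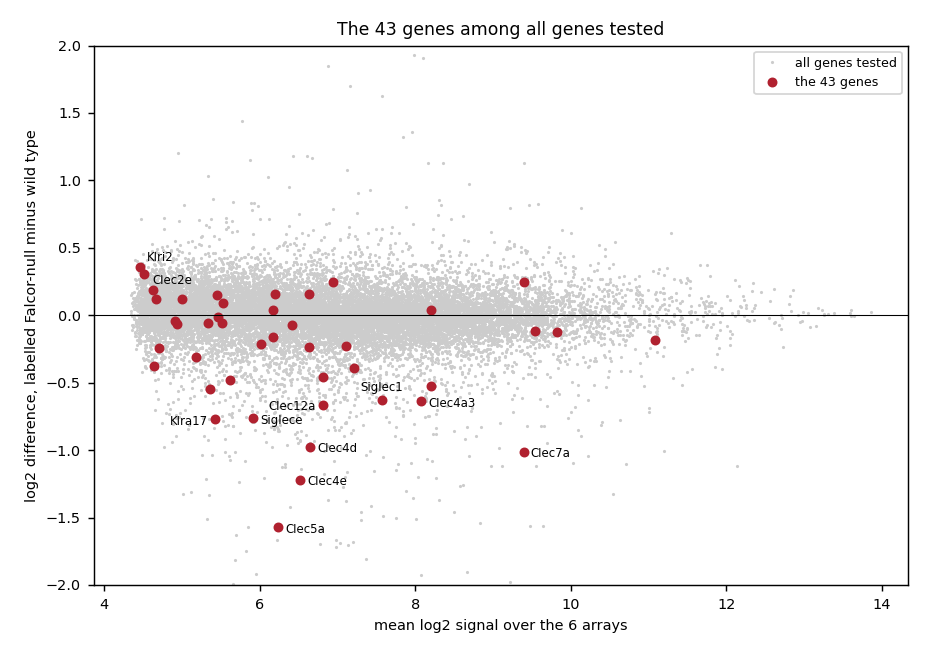
Log2 difference against mean log2 signal over the 6 arrays, with grey points for all genes tested and red points for the 43 genes, those below -0.6 or above 0.3 being named. The vertical axis is limited to 2 in each direction, which leaves 15 of all genes tested outside it. The red points reach -1.57 on the lower side and 0.36 on the higher side.

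Bright and dim genes, and genes in and outside the large clusters, were also counted apart. Of the 14 genes whose mean lay above the median of all probe sets (6.72), 11 were lower with a median difference of -0.31. Over all genes above that level, 4862 of 8978 were lower with a median of -0.01. Among the 29 genes at or below it, 19 were lower with a median of -0.06. Over all genes at or below it, 3274 of 7559 were lower with a median of 0.03. Chromosome 6 carries 26 of the 43, most in the Dectin clusters and the natural killer gene complex, and 21 of these were lower with a median of -0.27. On other chromosomes 9 of 17 were lower, with a median of -0.01. Genes that lie side by side and are expressed by the same cells are not independent of one another.

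The adaptors and enzymes through which these receptors signal were mostly lower as well, though none passed the test. Of 18 measured genes of that list 16 were lower and 2 higher, where 49.2% of all genes were lower. At an unadjusted p of 0.05 in limma 9 of the 18 were lower, against 7.65% of all genes. Tyrobp (DAP12), the adaptor of Clec5a, read 8.73, 9.52 and 8.97 on wild type and 8.03, 8.33 and 8.74 on the null-labelled arrays (-0.71, SE 0.24, adjusted p 0.253). Fcer1g, the adaptor of Clec4e, Clec4d and Clec4n, read 10.18, 10.97 and 10.45 on wild type and 9.79, 9.94 and 9.97 on the null-labelled arrays (-0.63, SE 0.19, adjusted p 0.208). Both were highest on wild type replicate 2, as were Clec5a and Clec4e. The phosphatase genes Inpp5d (-0.52, adjusted p 0.0542) and Ptpn6 (-0.51, adjusted p 0.0854), the exchange factor gene Vav1 (-0.73, adjusted p 0.0748) and Malt1 (-0.58, adjusted p 0.198), a protease downstream of Card9, had the smallest p-values of the list. Syk (-0.22) and Card9 (-0.16) had adjusted p-values of 0.601 and 0.553. Tyrobp, Fcer1g, Syk and Card9 are named for their role, after their values were seen.

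Among 30 measured lectins, Siglecs and related genes that do not carry the 4 kinds of symbol, 20 were lower and 10 higher, and 2 passed in limma. Of all genes tested, 49.2% were lower and 0.556% passed. At an unadjusted p of 0.05 in limma, 11 of the 30 were lower and 2 higher, against 7.65% and 6.11% of all genes. Cd33, the Siglec of myeloid cells, read 9.41, 9.71 and 9.59 on wild type and 8.41, 8.60 and 8.74 on the null-labelled arrays. It fell 1.98-fold (log2 difference -0.98, SE 0.12, adjusted p 0.0212), beside -0.76 for Siglece. Selplg, the glycoprotein ligand of selectins on leukocytes, fell 1.77-fold (log2 difference -0.82, SE 0.10, adjusted p 0.0203). Both calls were lost when most single arrays were left out. Cd33 kept its call without wild type replicate 1 (adjusted p 0.0394) or null-labelled replicate 3 (0.0452). Leaving out wild type replicate 2 or 3 gave 0.0862 or 0.0795, and leaving out null-labelled replicate 1 or 2 gave 0.0709 or 0.0852. Selplg kept its call without wild type replicate 1 (adjusted p 0.0394), and its adjusted p lay between 0.0595 and 0.0905 when any other array was left out. Cd69 (-0.79, adjusted p 0.0817), a lectin of newly activated lymphocytes, and Cd22 (-0.89, adjusted p 0.135), the Siglec of B cells, had the next smallest p-values. Mrc2, named for its direction after its values were seen, was higher (0.44, adjusted p 0.176), with every null-labelled array above wild type.

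Ligands and the enzymes that make them divided nearly evenly. Of 26 measured, 14 were lower and 12 higher, and none passed. At an unadjusted p of 0.05 in limma, 4 were lower and 1 higher, against 7.65% and 6.11% of all genes. Cmah, which makes the sialic acid form preferred by several mouse Siglecs, gave -0.40 (adjusted p 0.110), Cd24a, a sialylated ligand of Siglecg, -0.29 (adjusted p 0.301), the polysialic acid enzyme gene St8sia4 -0.47 (adjusted p 0.326) and Icam2 0.20 (adjusted p 0.270).

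Markers of the leukocytes that carry these receptors also read mostly lower. For comparison, 49.2% of all genes were lower and 0.556% passed the test in either direction. All 9 measured genes of the pan-leukocyte list were lower, with list means of 8.97 to 9.19 on wild type and 8.36 to 8.58 on the null-labelled arrays, and 1 of them passed the test. All 12 alveolar macrophage markers were lower, at list means of 8.73 to 9.25 against 8.14 to 8.67, as were 8 of 9 neutrophil markers, at 7.2 to 8.25 against 6.47 to 6.83, with none past the test in either list. Monocyte and interstitial macrophage markers were lower in 10 of 12 (7.85 to 7.93 against 7.53 to 7.66, none past the test), and dendritic cell markers in 11 of 12 (6.88 to 7.26 against 6.62 to 6.72, 1 past the test). T cell markers were lower in 12 of 12 (6.85 to 7.10 against 6.18 to 6.40, 4 past the test) and NK cell markers in 7 of 9 (6.48 to 6.61 against 6.35 to 6.40, none past the test). B and plasma cell markers were lower in 11 of 11 (7.54 to 7.74 against 6.57 to 6.72, 4 past the test), with the largest differences in the antibody genes Jchain (-2.78, adjusted p 0.000311) and Ighm (-2.61, adjusted p 0.00651), named after their values were seen. Endothelial markers were higher in 10 of 10 (9.98 to 10.01 against 10.22 to 10.35, none past the test). Log2 signals have no true zero, and no marker can be called absent. The part of these shifts in the lectin differences was not tested.

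The wild-type arrays did not keep 1 order across the lists. Wild type replicate 2 was highest, and replicate 1 lowest, in the alveolar macrophage list (9.25 and 8.73) and in Clec5a, Clec4e, Clec4d, Clec4n and Clec7a. The neutrophil list was highest on wild type replicate 3 (8.25), beside 7.2 and 7.23 on replicates 1 and 2. Siglece, Clec12a, Clec4a3, Klra17 and Klra2, among others, were also highest there. So was Siglecf, a mark of alveolar macrophages (7.66, beside 7.57 on replicate 2), unlike the alveolar macrophage list. Whether these orders follow a cell type was not tested. The dendritic cell and NK cell lists were highest on wild type replicate 1. Of the null-labelled arrays, replicate 3 was nearest to wild type in the alveolar macrophage list and in Siglec1, Klra17 and Clec5a. In Clec4a3 the same array was instead the lowest of all (7.58), and by a small margin also in Clec4e and Clec12a.

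**Figure D4:**
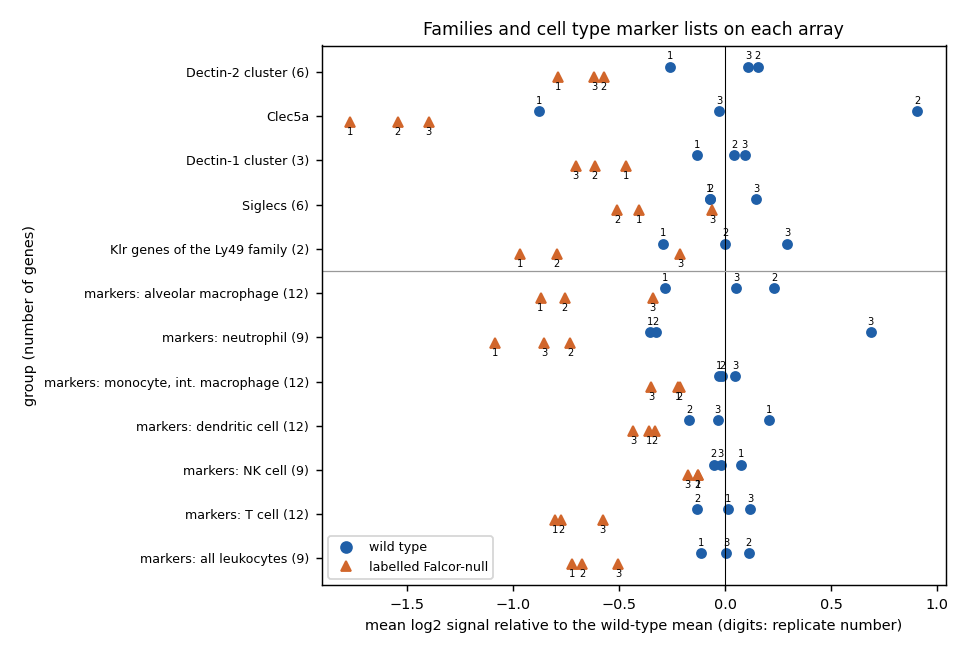
Mean log2 signal of lectin families (above the line, with Clec5a as a single gene) and of cell type marker lists (below it) on each array, relative to the wild-type mean of the same row, with digits for the replicate. Clec5a spreads from -0.88 to 0.91 on wild type and from -1.77 to -1.40 on the null-labelled arrays, and the NK cell row has the smallest gap between group means among the rows drawn.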

How the data were processed

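The authors deposited a table of log2 signals with a row for each probe set and a column for each array. Its making used RMA in oligo, per the submitters' processing notes, which also list limma and give no version. RMA makes the distributions of arrays alike, so a shift shared by most genes would largely be removed. In the deposited table the distributions were close but not identical. Array medians were 6.717 to 6.735 on wild type and 6.694 to 6.7 on the null-labelled arrays. The lowest values were 3.192 to 3.222 on wild type and 2.089 to 2.417 on the null-labelled arrays. No depth exists for arrays, and their number limits the precision. Of 24173 probe sets, 17476 had 1 symbol in the platform annotation and gave 16537 genes, by the highest mean where a gene had several. All 43 gene numbers were found in the RefSeq table of GRCm38.p6.

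All genes were fitted together (lmFit and eBayes, limma 3.58.1, R 4.3.3, two-sided, no covariate) with Benjamini-Hochberg adjustment over all of them. An exact permutation test of 3 against 3 cannot go below 0.1. The fit was tested on simulated data. The members, families, gene lists and the rule for named genes (largest differences without overlap, up to 4 smallest p and the highest mean per family, a set of index genes, and up to 4 smallest p per related list) were chosen with earlier results of these data known. Related lists covered adaptors, other lectins and ligands. Some genes stand in more than 1 list, so the counts are not separate. Cd22 and Fcer2a were counted as B cell markers and as other lectins. Cd207 was counted as a dendritic cell marker and as another lectin, and Cdh1 as an epithelial marker and a ligand. Marker lists of plasmacytoid dendritic cells (4 of 7 lower, 2 past the test), eosinophils (3 of 4 lower), platelets (5 of 7 lower) and ILC2 (3 of 6 lower) were also read. No gene of the eosinophil, platelet or ILC2 list passed. Of 9 genes listed for mast cells and basophils only Gata2 was measured. It was lower by 0.05 on the log2 scale, and 1 gene cannot speak for these cells. Xist, the 1 sex-linked gene measured, differed by 0.07 and read 10.87 to 11.11 over all arrays. Same-numbered arrays deviated from their group means with correlations of 0.02, -0.00 and -0.08, so the numbers were not taken to pair samples. Alternatives covered scaling, variance models, dim filters, probe set choice, the replicate block and each array left out. Plots used matplotlib 3.10.9 (Python 3.11.15).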

Additional observations from a re-analysis of the deposited data

How the results depend on the processing

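No member passed an adjusted p of 0.05 in limma with all 6 arrays under any scaling, variance model, dim filter, probe set choice or the replicate block, while 3 passed at a looser threshold of 0.1, where 280 of all genes and 6 of the related genes passed. Those 3 (Clec12a, Clec4a3 and Clec4e) were above 0.1 with the replicate block (up to 0.18), with arrays centred or quantile normalized again, and with every probe set tested. With 1 array left out their adjusted p ranged from 0.131 to 0.247 for Clec12a, 0.115 to 0.256 for Clec4a3 and 0.0423 to 0.243 for Clec4e. Leaving out 1 array gave 0 to 3 passing members, 18 to 89 genes passing over all (92 with all arrays; 89 without wild type replicate 1, 26 and 49 without wild type replicates 2 and 3, and 24, 18 and 37 without null-labelled replicates 1, 2 and 3), and 0 to 4 related genes. With the replicate number as a block, 32 genes and 1 related gene (Cd33) passed; the numbers were not found to pair the samples. Filters that kept genes above the 30th percentile or the median left 25 and 14 members, of which 19 and 11 were lower, and the median filter left 4 lower at an unadjusted p of 0.05 and a median member difference of -0.309; fewer members were tested there. The number higher at that p was 2 when arrays were centred on their medians or weighted, 0 with an intensity trend or the 30th percentile filter, and 0 to 3 with 1 array left out. Clec18a changed sign when arrays were centred (0.018) or weighted (0.005); the cause was not tested.

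The members lower numbered 26 to 31, and their median difference lay between -0.198 and -0.119, when 1 array was left out. Small differences changed sign there. The ranges were -0.169 to 0.013 for Klrb1f, -0.012 to 0.417 for Klrc1, -0.176 to 0.034 for Klrg2, -0.087 to 0.145 for Siglec15, -0.244 to 0.139 for Siglech, -0.227 to 0.124 for Cd209b and -0.214 to 0.459 for Cd209c. They were -0.007 to 0.255 for Cd209d, -0.27 to 0.085 for Cd209g, -0.329 to 0.075 for Clec1a, -0.058 to 0.268 for Clec4g, -0.05 to 0.102 for Clec16a and -0.095 to 0.062 for Clec18a. Clec5a (-2.01 to -1.12), Clec4e (-1.49 to -0.92), Clec7a (-1.30 to -0.80) and Clec4d (-1.20 to -0.76) kept their direction. With 3 arrays a group, the number of arrays limits the precision, and members with dim probe sets may hide differences.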

Other observations

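Some probe sets lie outside the 43 genes or repeat 1 of them, and they are given as values only, from a fit over every probe set. The probe set annotated to both Clec9a, a receptor of cross-presenting dendritic cells for dead cells, and Clec1b, the podoplanin receptor of platelets, read 7.2, 6.43 and 6.26 on wild type and 6.26, 6.16 and 6.47 on the null-labelled arrays. Its log2 difference was -0.34 (95% interval -0.90 to 0.23), and the high value of wild type replicate 1 cannot be given to either gene. The probe set shared by Cd209f and Cd209g differed by -0.30 (95% interval -0.69 to 0.10), where the probe set of Cd209g alone gave -0.06. The second, dimmer probe set of Cd209a gave 0.07 beside 0.24, and that of Cd209c 0.10 beside 0.16.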
